A study of Homo sapiens with 12 samples.

Results

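Integrins are the adhesion receptors with which cells hold on to the extracellular matrix, and laminins are the large proteins of the basement membrane that many of them bind. The group described here holds 30 genes, 20 integrin subunits (ITGA1 to ITGA11, ITGAV and ITGB1 to ITGB8) and 10 laminin chains (LAMA1 to LAMA5, LAMB1 to LAMB3, LAMC1 and LAMC3). They were found by symbol, through their Ensembl identifiers in GENCODE v44, among the 58302 identifiers of the count table. All 30 were found. Of these, 23 passed the filter on low counts and were tested (14 integrins and 9 laminins), and 7 did not.

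RNA-seq was performed on 12 libraries of MIB1-iKO cells, a single-cell clone of the lung cancer line NCIH838 with Dox-inducible Cas9 and a guide RNA against MIB1, the gene of a ubiquitin ligase. The libraries formed 4 groups of 3 replicates. Before the BMP4 step, all cells spent 3 days in 50 nM LDN, a BMP receptor kinase inhibitor, and received 0.5 µg/mL Dox (MIB1 KO) or none (MIB1 WT). All cells were then given 10 ng/mL BMP4 for 24 hours, either still with LDN (BMP-off) or with DMSO instead (BMP-on). Dox and induced Cas9 were present in all KO libraries and in none of the WT libraries, and their effects cannot be told apart from those of MIB1 loss. Likewise, BMP-on and BMP-off differed by the removal of LDN and not by BMP4. Any other effects of LDN cannot be told apart from those of BMP signaling.

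Total counts ranged from 19124010 to 29498000 per library. MIB1 transcript lay between 144 and 176 CPM (read counts scaled to the TMM-corrected library size) in the 6 WT libraries and between 31 and 34.4 CPM in the 6 KO libraries, which do not overlap. The inhibitory SMAD gene SMAD7, a BMP target, rose with BMP-on by 1.11 (WT) and 1.35 (KO) on the log2 scale. The epithelial keratins KRT18 (71.1 to 85.4 RPKM, read counts scaled to library size and gene length) and KRT8 (21.8 to 43.2 RPKM) were present, whereas KRT19 reached at most 0.0775 RPKM and the lung lineage factor NKX2-1 at most 0.0114 RPKM. The epithelial adhesion gene EPCAM fell with BMP-on in WT cells (9.28 ± 0.656 CPM BMP-off, 6.3 ± 0.477 CPM BMP-on, SD of 3 libraries) and in KO cells (8.21 ± 1.01 and 5.37 ± 0.519 CPM), and KRT8 rose in KO cells (119 ± 23.5 and 181 ± 15.6 CPM). The epithelial cadherin gene CDH1 had 129 to 228 counts per library. Of the 3 leukocyte markers, PTPRC was at 0 in every library and CD3E had at most 9 counts, but CD14 had 73 to 140 counts per library. Together these 3 summed to between 1.84 and 2.82 RPKM. The 4 fibroblast markers summed to between 1.93 and 6.49 RPKM, nearly all of it COL1A1, and this sum was higher with BMP-on in both genotypes (4.65 against 2.92 RPKM in WT and 5.87 against 2.35 RPKM in KO cells). COL1A2 and DCN were near 0 throughout. The part of these markers in the results below was not tested.

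An integrin is a pair of an alpha and a beta subunit, and the pair decides what is bound. Alpha 3, 6 and 7 with beta 1 (and alpha 6 with beta 4) bind laminin, alpha 1, 2, 10 and 11 bind collagen, and alpha 5, 8 and V bind the RGD motif of fibronectin, vitronectin and latent TGF-β. A laminin is a trimer of an alpha, a beta and a gamma chain, of which the alpha chain carries the main integrin-binding domain. In lung epithelium these proteins attach cells to the basement membrane.

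The highest transcript levels of the group, compared per gene length, were those of LAMC1, the gamma chain of most laminins, and ITGB1, the beta subunit that pairs with most alpha subunits. LAMC1 averaged 217 RPKM over the 12 libraries and ITGB1 averaged 208 RPKM, above 99% and 98.9% of the tested genes. LAMB3, the beta chain of laminin-332, followed with 71.2 RPKM, then ITGAV (63.3 RPKM), ITGB5 (51.8 RPKM), ITGA6 (47.3 RPKM), LAMB2 (46 RPKM) and ITGA5 (45.9 RPKM). LAMC1 (186 to 234 RPKM) and ITGB1 (187 to 233 RPKM) overlapped over the libraries and lay above all values of LAMB3 (54.3 to 86.4 RPKM). Neighbours that overlapped were also LAMB3 with ITGAV (55.7 to 69.3 RPKM), ITGAV with ITGB5 (45.9 to 57 RPKM), ITGB5 with ITGA6 (42 to 53.5 RPKM), ITGA6 with LAMB2 (32.1 to 53.5 RPKM), and LAMB2 with ITGA5 (40.6 to 52.1 RPKM). At the other end, ITGA8 was at 0 in all libraries, and ITGA4, ITGA9, ITGA11, ITGB6, ITGB7 and LAMA2 stayed at a mean of at most 0.0241 RPKM. These are the 7 genes that were not tested. ITGA10 was tested at a mean of 0.0635 RPKM, so that its fold changes are imprecise.

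**Figure D1:**
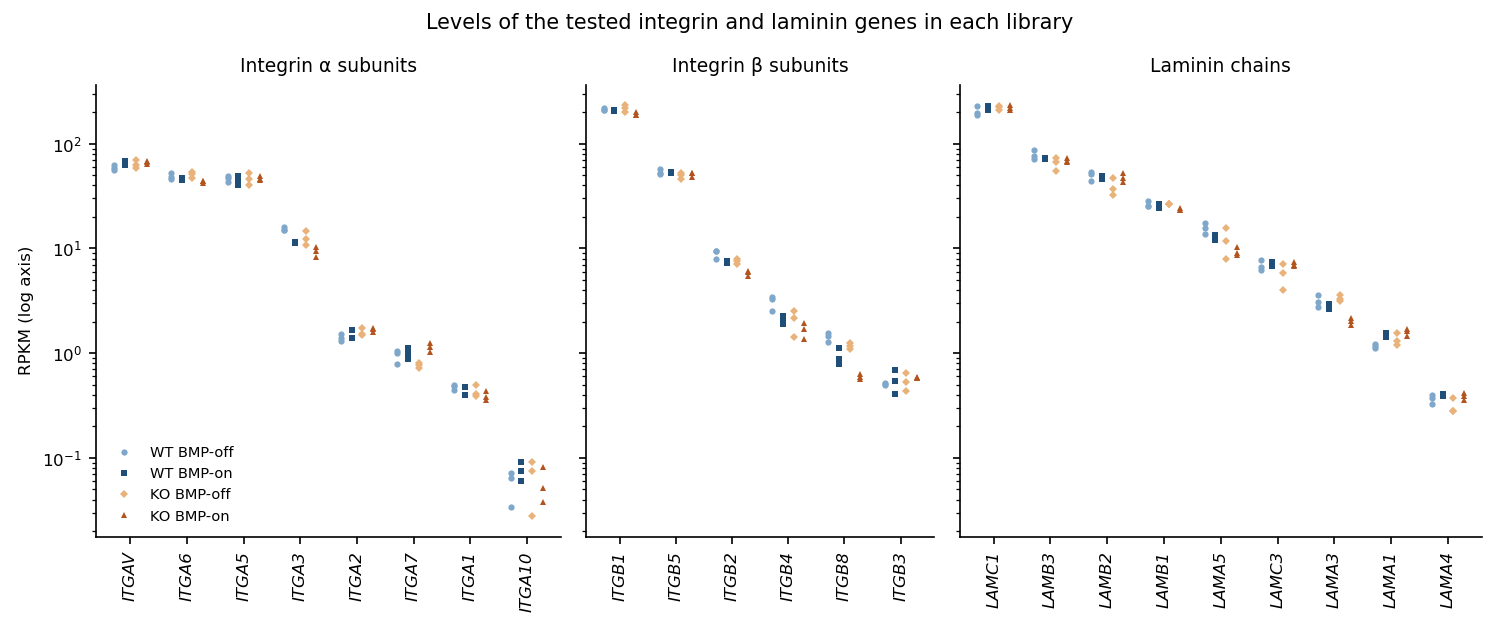
RPKM on a log axis for each of the 23 tested genes, with 3 points for each of the 4 groups, ordered by mean level within integrin alpha subunits, integrin beta subunits and laminin chains. The levels span from about 217 RPKM for LAMC1 to 0.0635 RPKM for ITGA10, and differences between genes are far larger than differences between groups.

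The alpha and beta sides of the integrins were carried by few genes. ITGB1 made up 74.4% to 80.5% of the summed beta subunit RPKM in each library, and ITGAV between 32.2% and 40.5% of the summed alpha subunit RPKM. The collagen-binding subunits ITGA1 (0.43 RPKM) and ITGA2 (1.54 RPKM) were low. ITGB2, the beta subunit known from leukocyte integrins, had 7.43 RPKM although its leukocyte partners ITGAL, ITGAM, ITGAX and ITGAD were at or near 0 (means of at most 0.03 RPKM). Among laminins, the summed alpha chain transcripts (12.8 to 21.8 RPKM) were far below the summed beta chains (113 to 165 RPKM) and LAMC1 with LAMC3 (193 to 241 RPKM). LAMC1 alone was between 9.08 and 18.3 times the summed alpha chains. LAMA5, the alpha chain of laminin-511, gave between 60.5% and 80.6% of the alpha chain sum.

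The BMP response in MIB1 WT cells (BMP-on against BMP-off) changed 2 of the 23 tested genes at an edgeR Benjamini-Hochberg adjusted p of at most 0.05, against 3.92% of all 17188 genes tested. ITGB8 fell, as did 2.01% of all genes, and LAMA1 rose, as did 1.91%. The libraries of the groups did not overlap for 7 of the 23 genes, against 23.9% of all genes. The median log2 fold change of the 23 genes was -0.03, against 0.00164 over all genes, with 10 positive and 13 negative values. No integrin or laminin gene also reached an absolute log2 fold change of 1, which 0.425% of all genes did.

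ITGB8 encodes the beta subunit that pairs with alpha V and releases active TGF-β from its latent complex. In WT cells its 3 libraries with BMP-off had 12.9, 11.3 and 13.7 CPM and those with BMP-on had 7.05, 9.89 and 7.94 CPM. All BMP-on libraries were below all BMP-off libraries. ITGB8 fell to 65.9% of the BMP-off level, a log2 fold change of -0.60 (SE 0.114, edgeR adjusted p = 0.00483). LAMA1, the alpha chain of laminin-111, had 11.2, 11.2 and 10.6 CPM with BMP-off and 14.5, 15 and 13.6 CPM with BMP-on. Its groups did not overlap either, with the higher values in BMP-on, and the log2 fold change was 0.38 (SE 0.0987, edgeR adjusted p = 0.0398). The call of LAMA1 was lost without any 1 of the 6 WT libraries or KO BMP-on replicate 1 (edgeR adjusted p up to 0.162). The log2 fold changes were then between 0.35 and 0.42. The call was also lost with limma-voom with quantile normalization (0.36, limma adjusted p = 0.064) and in the fits on log2 RPKM (limma adjusted p up to 0.289).

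ITGA3, the alpha subunit of the laminin receptor alpha 3 beta 1, had 68.8, 70.6 and 75.1 CPM in WT cells with BMP-off and 54.9, 54.8 and 53.3 CPM with BMP-on. The BMP-on libraries were lower without overlap, but the log2 fold change of -0.40 (SE 0.108) missed the threshold in the fit over all libraries (edgeR adjusted p = 0.0661). ITGA3 passed in 11 of 25 alternative fits, among them the fit of the WT groups only (edgeR adjusted p = 0.000234). It passed without KO BMP-off replicate 2 (edgeR adjusted p = 0.00184) or replicate 3 (edgeR adjusted p = 0.00339). It also passed without KO BMP-on replicate 1 (edgeR adjusted p = 0.0381) or replicate 3 (edgeR adjusted p = 0.0312). No KO library enters the WT response. The log2 fold change stayed at -0.40 in these fits, which changed the shared estimate of the spread. They are therefore not separate checks of ITGA3. Upper-quartile scaling called it too, which gave 1 gene higher and 2 lower. ITGAV, the alpha subunit of the vitronectin receptors, had 428, 403 and 384 CPM with BMP-off and 474, 449 and 436 CPM with BMP-on. Its BMP-on libraries were all higher, but the log2 fold change of 0.16 did not pass (edgeR adjusted p = 0.119).

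The BMP response in MIB1 KO cells changed 7 of the 23 genes, against 22% of all genes tested, 11.1% higher and 10.9% lower. The groups did not overlap for 6 of the 23 genes, 1 higher and 5 lower, against 35.8% of all genes. ITGA7 rose, and ITGB8, LAMA3, ITGB2, ITGA3, ITGA6 and ITGB1 fell. By role, all 3 laminin-binding alpha subunits passed the test, 3 of the 6 tested beta subunits did, and 1 of 4 tested laminin alpha chains. None of the 3 collagen-binding subunits tested, of the 2 tested RGD-binding subunits, of the 3 laminin beta chains or of the 2 gamma chains passed. The median log2 fold change was 0.03, against 0.00559 over all genes. None of the 7 reached an absolute log2 fold change of 1, which 1.66% of all genes did.

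LAMA3, the alpha chain of laminin-332 with which epithelial cells are anchored, had 32.9, 36.5 and 34.9 CPM in KO cells with BMP-off and 20, 21.8 and 23.4 CPM with BMP-on. The groups were apart, with every BMP-on library below every BMP-off library. LAMA3 fell to 62.7% of BMP-off, a log2 fold change of -0.67 (SE 0.0884, edgeR adjusted p = 4.56e-05). In WT cells, LAMA3 had 37.6, 32.7 and 29 CPM with BMP-off and 28.4, 31.4 and 29.5 CPM with BMP-on, which overlapped, and the log2 fold change was -0.16 (SE 0.0862, edgeR adjusted p = 0.432).

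ITGB8 had 10.3, 10.6 and 9.8 CPM in KO cells with BMP-off and 5.71, 5.07 and 5.32 CPM with BMP-on. All 3 BMP-on values were below the lowest BMP-off value, and they were the 3 lowest ITGB8 values of the 12 libraries. ITGB8 fell to 52.5% of BMP-off, a log2 fold change of -0.93 (SE 0.123, edgeR adjusted p = 4.86e-05). The calls of ITGB8, LAMA3 and ITGB2 in KO cells held in all 25 alternative fits. These include a fit that kept only replicate 1 of the KO BMP-off group, which gives no spread of its own for that group.

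The start regions of these 2 genes, taken from RefSeq (GRCh38.p14, plus strand, 250 bases before to 50 after the annotated start), are shown because ITGB8 and LAMA3 fell most with BMP-on in KO cells. Capitals mark letters searched on both strands, namely the SMAD-binding letters CAGAC, the GC-rich SMAD letters GGCGCC and GGAGCC, and the AP-1 letters TGANTCA. The ITGB8 window is chr7:20330650-20330949 and the LAMA3 window is chr18:23872770-23873069. The latter is an internal start, since the GENCODE gene begins at 23689453.
ITGB8: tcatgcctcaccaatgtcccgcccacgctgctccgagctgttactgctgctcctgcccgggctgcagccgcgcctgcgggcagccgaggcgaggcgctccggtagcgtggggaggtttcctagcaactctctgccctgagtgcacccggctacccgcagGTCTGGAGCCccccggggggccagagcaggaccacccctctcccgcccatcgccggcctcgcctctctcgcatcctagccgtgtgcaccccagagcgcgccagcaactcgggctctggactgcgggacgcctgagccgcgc
LAMA3: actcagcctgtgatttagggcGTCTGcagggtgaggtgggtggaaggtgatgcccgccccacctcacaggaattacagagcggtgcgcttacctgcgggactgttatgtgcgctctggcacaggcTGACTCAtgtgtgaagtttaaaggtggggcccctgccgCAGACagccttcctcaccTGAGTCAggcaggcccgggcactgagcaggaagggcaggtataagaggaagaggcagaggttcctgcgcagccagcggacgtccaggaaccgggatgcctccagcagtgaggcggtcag
The ITGB8 window holds 1 CAGAC and 1 GGAGCC match, which share a base. The LAMA3 window holds 2 CAGAC and 2 TGANTCA matches. Of all 35116 RefSeq windows, 45.3% hold CAGAC, 36% GGAGCC, 19.2% GGCGCC and 7.71% TGANTCA. RefSeq windows were given for 22 of the 30 genes, 29 windows in all, and of these 44.8% hold CAGAC, 58.6% GGAGCC, 24.1% GGCGCC and 10.3% TGANTCA. A match describes the letters and shows neither binding nor a cause. ITGB2, ITGA3, ITGA7, LAMA1, ITGB3, ITGB4, LAMC3 and ITGA9 were not in the table.

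The laminin-binding alpha subunits moved in different directions in KO cells. ITGA3 had 57.3, 48.3 and 68.8 CPM with BMP-off and 49.6, 45.2 and 39.3 CPM with BMP-on. These groups overlapped, since the lowest BMP-off library (replicate 2) was below the highest BMP-on library. ITGA3 fell with a log2 fold change of -0.38 (SE 0.11, edgeR adjusted p = 0.0278), which missed the threshold without KO BMP-on replicate 2 (edgeR adjusted p = 0.0695) or replicate 3 (edgeR adjusted p = 0.0675), with only the KO groups in the fit (edgeR adjusted p = 0.11) and with log2(RPKM + 1) without a filter (limma adjusted p = 0.0582). It was -0.69 after a correction for GC content. ITGA6, the alpha subunit shared by alpha 6 beta 1 and alpha 6 beta 4, had 283, 289 and 264 CPM with BMP-off and 239, 248 and 251 CPM with BMP-on. Its groups did not overlap, and the log2 fold change was -0.18 (SE 0.0491, edgeR adjusted p = 0.016). The ITGA6 call was lost in 5 of 25 alternative fits. Among these were the fits without KO BMP-off replicate 1 or 2 or KO BMP-on replicate 1 (edgeR adjusted p up to 0.0887). The others were limma-voom with quantile normalization (-0.13, limma adjusted p = 0.0524) and log2(RPKM + 1) without a filter (limma adjusted p = 0.0576).

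ITGA7, a laminin receptor subunit best known from muscle, was the only integrin or laminin gene called higher in this comparison. It had 3.11, 3.25 and 3.53 CPM with BMP-off and 5.52, 4.49 and 5.01 CPM with BMP-on, without overlap. ITGA7 rose with a log2 fold change of 0.61 (SE 0.143, edgeR adjusted p = 0.00584). After the GC correction it was 0.32 and no longer passed (edgeR adjusted p = 0.0864). The summed RPKM of ITGA3, ITGA6 and ITGA7 was 65.6 ± 3 with BMP-off and 58.7 ± 1.19 with BMP-on in WT cells, and 63.8 ± 1.29 and 53.9 ± 0.412 in KO cells (SD, n = 3 each).

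Among the beta subunits, ITGB2 had 25.3, 23.1 and 26.5 CPM with BMP-off and 20.9, 20.4 and 18.4 CPM with BMP-on in KO cells. The lower BMP-on values did not overlap with BMP-off. ITGB2 fell with a log2 fold change of -0.33 (SE 0.0827, edgeR adjusted p = 0.0098), or -0.60 after the GC correction. ITGB1 had 817, 847 and 770 CPM with BMP-off and 718, 720 and 776 CPM with BMP-on, so that 1 BMP-on library was above 1 BMP-off library. Its log2 fold change of -0.14 (SE 0.0435, edgeR adjusted p = 0.0348) was the smallest among the 7 called genes. The ITGB1 call was lost in 14 of 25 alternative fits. Of these, 7 left out 1 library (edgeR adjusted p up to 0.155). That library was any WT BMP-on library, KO BMP-off replicate 1 or 2, or KO BMP-on replicate 1 or 2. Others were limma-voom with quantile normalization (-0.07, limma adjusted p = 0.327) and the GC correction (-0.06, edgeR adjusted p = 0.165). The other partners of alpha V, ITGB3 (0.16, SE 0.19) and ITGB5 (0.08, SE 0.0587), did not pass.

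**Figure D2:**
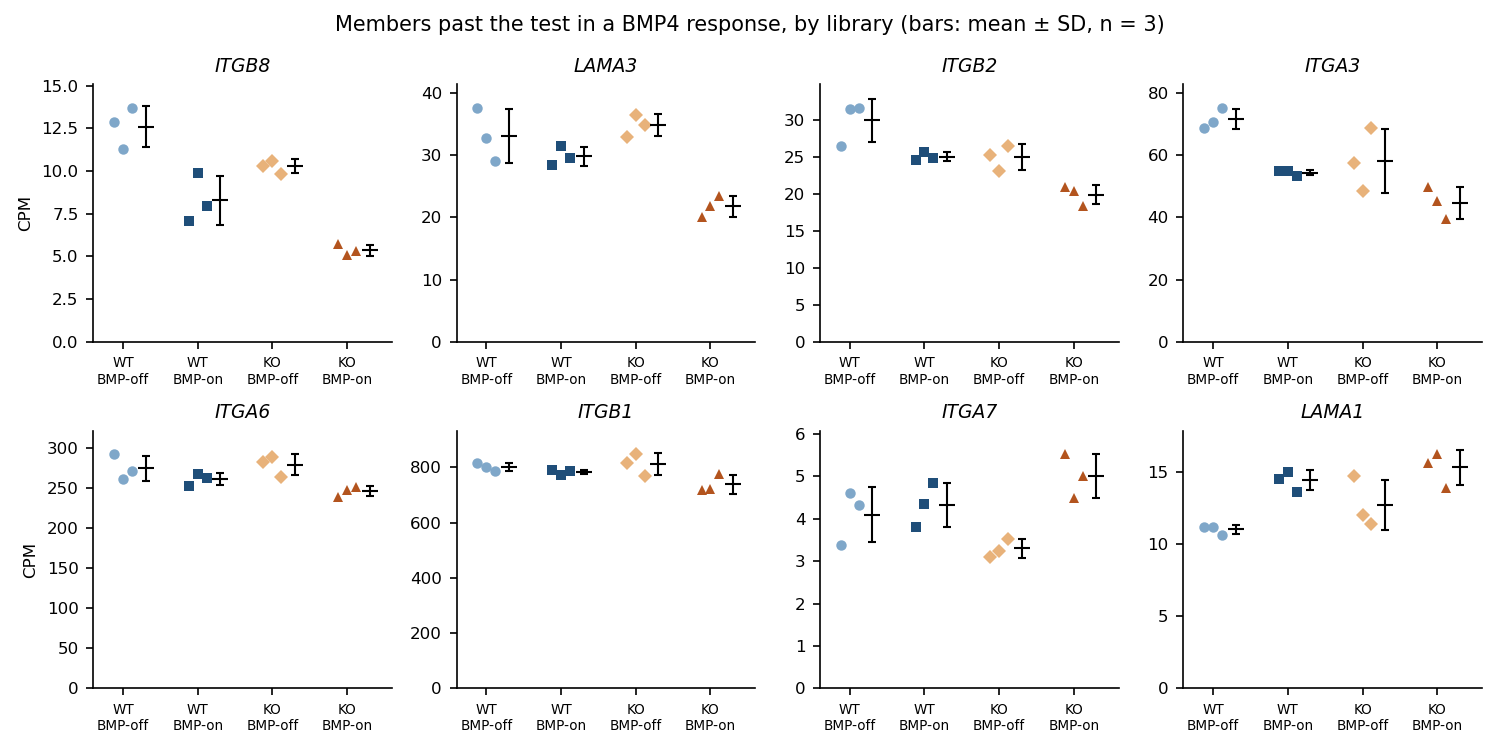
Normalized counts (CPM, linear axes from 0) of the 8 genes past the test in a BMP response, with each library as a point and the mean ± SD of 3 libraries beside it. ITGB8 and LAMA3 are lowest in the 3 KO BMP-on libraries, ITGA7 is low in the KO BMP-off libraries (3.11 to 3.53 CPM), and ITGB1 spans only 718 to 847 CPM.

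Among genes that did not pass, LAMC1, at 1600 to 1790 CPM in KO cells, had a log2 fold change of 0.03 with a 95% interval from -0.10 to 0.16. The 95% interval of ITGAV in KO cells was -0.02 to 0.21. For ITGA10, the tested gene with the lowest level, it ran from -1.08 to 0.93. LAMB1, the beta chain of laminin-111, had 158, 154 and 160 CPM with BMP-off and 142, 145 and 142 CPM with BMP-on in KO cells, without overlap, and missed the threshold with a log2 fold change of -0.14 (edgeR adjusted p = 0.0541). LAMA1, called in WT cells, had a log2 fold change of 0.26 in KO cells (edgeR adjusted p = 0.0673). Without KO BMP-off replicate 1, whose 14.7 CPM stood above the 12 and 11.4 CPM of replicates 2 and 3, it was 0.37 (edgeR adjusted p = 0.0169). With scaling by library size it passed at 0.28 (edgeR adjusted p = 0.0445). With KO BMP-off replicates 2 and 3 left out it was 0.0436, a value that rests on replicate 1 alone in that group.

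**Figure D3:**
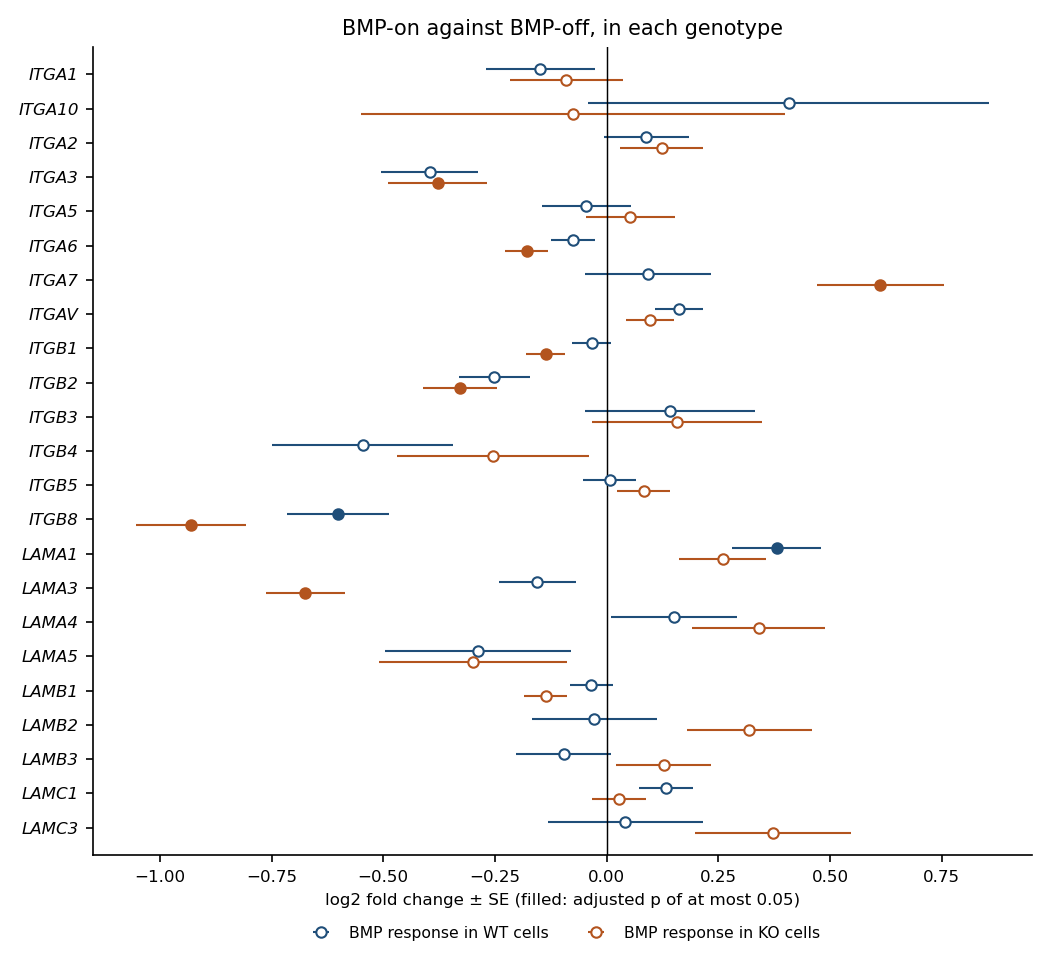
Log2 fold change ± SE of BMP-on against BMP-off for the 23 tested genes in WT cells (dark blue) and KO cells (brown), with filled points for an adjusted p of at most 0.05. The 2 filled points in WT cells are ITGB8 and LAMA1, and the 7 in KO cells include the lowest values, ITGB8 at -0.93 and LAMA3 at -0.67.

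Whether the BMP responses of WT and KO cells differed was asked with the interaction test, in which 0 of the 23 genes passed, against 0.0931% of all genes (0.0524% lower in KO), and 2 had an unadjusted p under 0.05, against 10.6% of all genes. With DESeq2 1 of the 23 passed. LAMA3 came nearest. Its response was lower in KO than in WT cells by 0.52 on the log2 scale (interaction -0.52, SE 0.123, edgeR adjusted p = 0.0986), with an adjusted p from 0.000825 to 0.514 over the alternatives and below 0.05 in 4 of 24 (DESeq2, no filter on low counts, the GC correction, and without WT BMP-off replicate 1). WT BMP-off replicate 1 had the highest LAMA3 level of all libraries, and without it the interaction was -0.64 (edgeR adjusted p = 0.0161). The interaction of ITGA7 was 0.52 (SE 0.2, edgeR adjusted p = 0.362), and that of ITGB8 -0.33 (95% interval -0.69 to 0.03). A difference between the responses was therefore not shown for any of these genes at this threshold.

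MIB1 KO cells were compared with WT cells in the presence of BMP signaling (BMP-on). Here 3 of the 23 genes passed, against 3.67% of all genes, and all 3 were lower in KO cells, as were 2.34% of all genes, while 1.32% were higher. These were LAMA3, ITGB8 and ITGB2. None reached an absolute log2 fold change of 1, against 0.14% of all genes. The values of 8 genes were lower in KO than in WT cells without overlap, and of 0 genes higher, against 12.2% and 11.4% of all genes. The median log2 fold change was -0.06, against 0.00247 over all genes, with 8 positive and 15 negative values.

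LAMA3 in KO cells with BMP-on (20 to 23.4 CPM) was below every WT library with BMP-on (28.4 to 31.4 CPM). LAMA3 was at 73.1% of WT, a log2 fold change of -0.45 (SE 0.0888, edgeR adjusted p = 0.00688). The LAMA3 call was lost in 4 of 25 alternative fits. Leaving out replicate 1 of KO BMP-on gave -0.40 (edgeR adjusted p = 0.0522). The fits on log2 RPKM missed the threshold as well (limma adjusted p from 0.0583 to 0.131). ITGB8 in KO cells (5.07 to 5.71 CPM) was also below WT cells (7.05 to 9.89 CPM). Its log2 fold change was -0.63 (SE 0.125, edgeR adjusted p = 0.00734), to 64.7% of WT. The ITGB8 call was lost in 4 of 25 alternative fits. Without WT BMP-on replicate 2 the log2 fold change was -0.48 (edgeR adjusted p = 0.0519). The fits on log2 RPKM missed the threshold for ITGB8 too (limma adjusted p from 0.0766 to 0.196). ITGB2 had 24.6, 25.7 and 24.8 CPM in WT cells with BMP-on, above the 18.4 to 20.9 CPM of KO cells. The ITGB2 log2 fold change was -0.33 (SE 0.0825, edgeR adjusted p = 0.0323). It missed the threshold in 8 of 25 alternative fits. Of these, 5 left out 1 library, each BMP-on library except KO replicate 1 (edgeR adjusted p up to 0.143). In bulk RNA, fewer cells that express a gene and less transcript per cell cannot be told apart.

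With BMP-off, none of the 23 genes passed in KO against WT cells, against 0.0407% of all genes (0.00582% higher and 0.0349% lower, and 0.0116% also past 1 in absolute log2 fold change). An unadjusted p under 0.05 was reached by 7, against 10.2% of all genes. The groups did not overlap for LAMA1 (higher in KO, as for 5.76% of all genes) and ITGB8 (lower, as for 5.96%). With DESeq2 and with limma-voom the count was also 0. The smallest adjusted p was 0.366, for ITGB2 (-0.26, SE 0.0804). The log2 fold change of LAMA3 was 0.07 here, with a 95% interval from -0.12 to 0.25, and it was negative, -0.02, without WT BMP-off replicate 3. ITGB8 had lower values in all KO libraries (9.8 to 10.6 CPM) than in WT libraries (11.3 to 13.7 CPM), with a log2 fold change of -0.30 that did not pass (edgeR adjusted p = 0.408). ITGA3 passed in the absence of KO BMP-off replicate 3, with a log2 fold change of -0.43 (edgeR adjusted p = 0.0474).

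**Figure D4:**
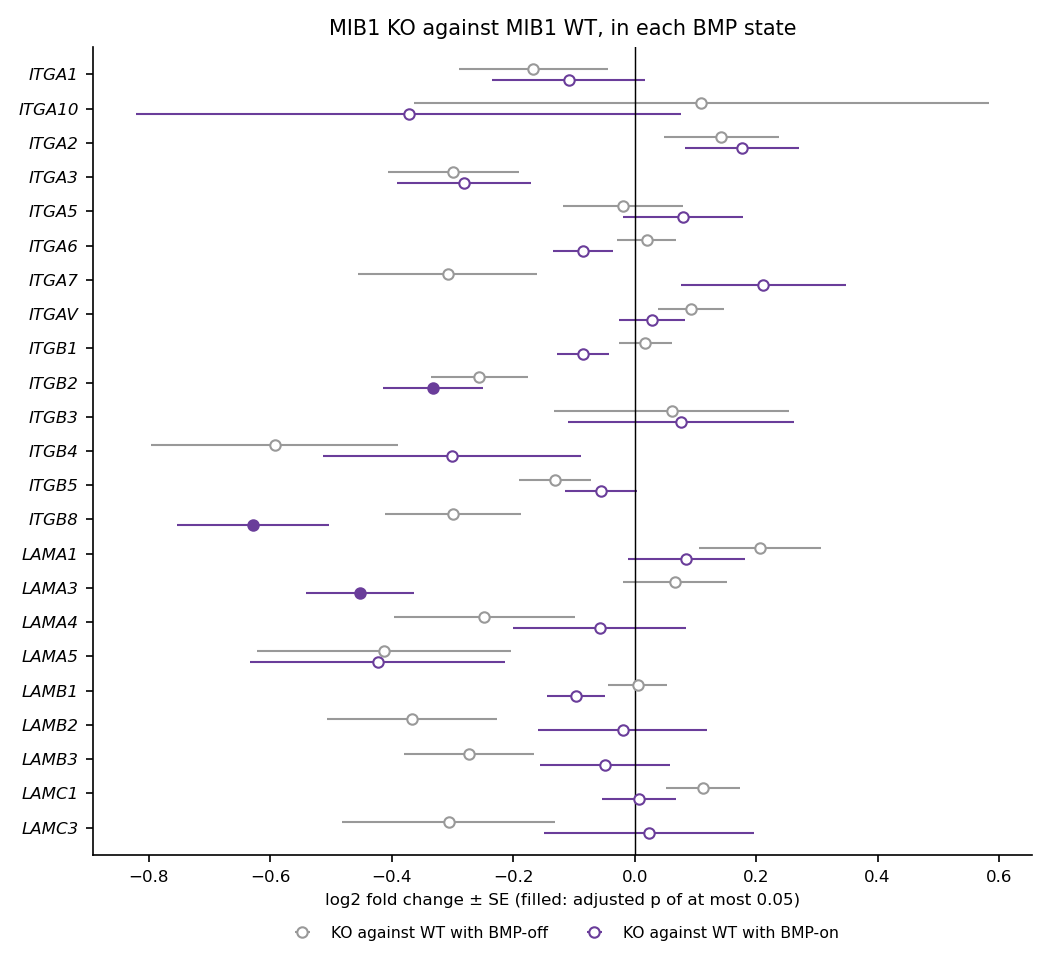
Log2 fold change ± SE of MIB1 KO against WT for the 23 tested genes with BMP-off (grey) and BMP-on (purple), with filled points for an adjusted p of at most 0.05. LAMA3, ITGB8 and ITGB2 are the 3 filled points, all with BMP-on and all below 0.

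LAMA3 lies on chromosome 18 like MIB1, the gene cut by Cas9, and starts 1818 kb beyond its end. LAMA1 lies on the same chromosome, on the other side of MIB1, and is not among the genes counted here. With BMP-on, the 24 tested genes within 5 Mb beyond MIB1, LAMA3 among them, had a median log2 fold change (KO against WT) of -0.12. All 177 tested genes beyond MIB1 on this chromosome, again with LAMA3, had -0.0743, against 0.00247 over all genes. Of the 177, 10 passed the test, while 3.67% of all tested genes did. With BMP-off, the medians were -0.016 and -0.00522, against -0.00862 over all genes, and 0 of the 177 passed (0.0407% of all genes did). LAMA3 itself was 0.07 with BMP-off. The part of the shared chromosome in the LAMA3 and LAMA1 values was not tested.

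The spread between replicates was larger in GC-rich genes, with a Spearman's rho of 0.587 between residual SD and GC content across the 23 genes and 0.294 across all genes, which are not independent replicates. Counts deviated from the group mean with GC content, with a Spearman's rho from -0.6 in KO BMP-off replicate 2 to 0.583 in replicate 3 of the same group. Of the 23 tested genes, 8 had a transcript GC content over 55%, namely ITGA3, ITGA7, ITGB2, ITGB4, LAMA5, LAMB2, LAMB3 and LAMC3. In KO BMP-off replicate 2 all 8 were below their group mean, and in replicate 3 all 8 were above. LAMA5 (66.4% GC) had 128, 83.7 and 172 CPM in these 3 libraries, and ITGB4, the beta subunit of the hemidesmosome receptor, had 12.7, 8.15 and 15.2 CPM. LAMB2 and LAMC3 followed the same order with 204, 171 and 262 CPM and with 33.7, 22.6 and 41.7 CPM.

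**Figure D5:**
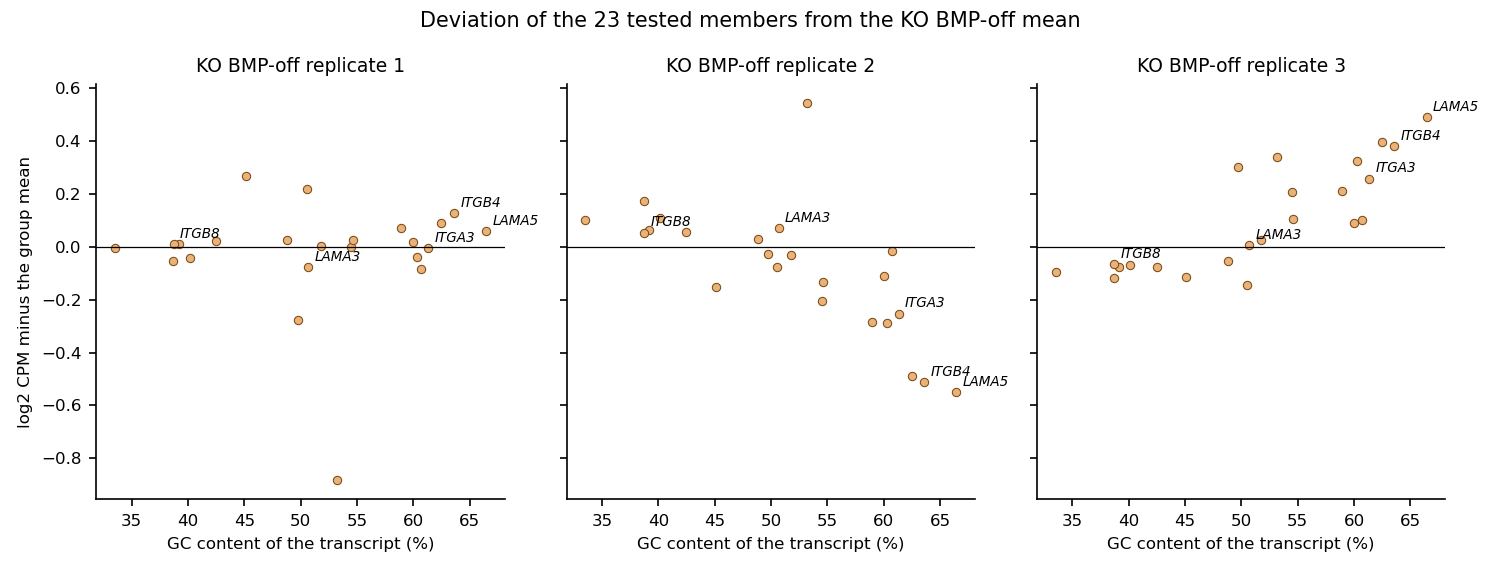
Deviation of each of the 23 tested genes from its KO BMP-off mean (log2 CPM) against the GC content of its transcript in percent, for the 3 replicates. The GC-rich genes at the right fall to -0.551 in replicate 2 and rise to 0.491 in replicate 3 (both LAMA5), while ITGB8 and LAMA3 stay near 0.

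LAMA5 and ITGB4 did not pass in any comparison of the uncorrected fit. After the GC correction, LAMA5 passed in both BMP responses, with log2 fold changes of -0.46 in WT (edgeR adjusted p = 0.000107) and -0.73 in KO cells (edgeR adjusted p = 1.8e-07), and in KO against WT with BMP-on with -0.53 (edgeR adjusted p = 3.53e-05). ITGB4 passed there in the same comparisons with -0.66, -0.63 and -0.40, and with BMP-off with -0.44 (edgeR adjusted p = 0.0284). LAMB2 was then also lower in KO cells with BMP-off, with -0.25 (edgeR adjusted p = 0.0316). Their uncorrected log2 fold changes had the same signs and larger SEs, such as -0.30 (SE 0.211) for LAMA5 and -0.25 (SE 0.215) for ITGB4 in the KO response. The correction also called ITGA3, ITGAV, ITGB2 and LAMB3 in the WT response, ITGAV and LAMB1 in the KO response, and ITGA3 with BMP-on. The calls of ITGA7 and ITGB1 in the KO response were lost with it. The correction was fitted to deviations from the mean of all 12 libraries, so it also removes GC-linked differences between groups. In the KO response it moved LAMA5 from -0.30 to -0.73, ITGB4 from -0.25 to -0.63, ITGA7 from 0.61 to 0.32 and LAMB2 from 0.32 to 0.05. Whether calls gained or lost reflect this shift was not tested. With KO BMP-off replicates 2 and 3 left out, a choice made after the data were seen, only replicate 1 remained in that group. In the KO response, the log2 fold change was then -0.34 for ITGB4 and -0.31 for LAMA5. The WT response and KO against WT with BMP-on hold no KO BMP-off library, so this fit could not check them. Their values stayed at -0.54 for ITGB4 (WT response) and -0.43 for LAMA5 (BMP-on). The calls of ITGB8, LAMA3 and ITGB2 were kept under the GC correction. With replicate 1 alone in KO BMP-off, their log2 fold changes in the KO response were -0.95, -0.60 and -0.35.

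Genes around the integrins and laminins were followed with a list of 54 (matrix partners, other laminin receptors, adaptors of focal adhesions and further alpha subunits), of which 46 were tested. In the WT response 5 passed (3.92% of all genes did), 2 higher (FN1 and the kindlin FERMT2) and 3 lower (SDC4, CD9 and the integrin-linked kinase ILK). SDC4, a syndecan that acts as a co-receptor at focal adhesions, had a log2 fold change of -0.37 (SE 0.0442, edgeR adjusted p = 0.000105). FN1, the RGD ligand fibronectin, rose by 0.46 (SE 0.0769, edgeR adjusted p = 0.00188).

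In the KO response 15 of the 46 passed, 7 higher and 8 lower, against 22% of all genes. Higher were FN1 (0.56), VTN, the RGD ligand vitronectin (0.28), CD151, a tetraspanin partner of laminin-binding integrins (0.47), the kindlins FERMT2 (0.15) and FERMT3 (1.06), and the tensins TNS2 (0.48) and TNS4 (0.45). The value of FERMT3 comes from a low level, 19 to 47 counts per library. Lower were SDC4 (-0.62), the matrix protein tenascin-C, TNC (-0.69), the laminin linker NID2 (-0.26), CD9 (-0.25), ILK (-0.16), LIMS1 (-0.22), TNS3 (-0.47) and ITGB1BP1 (-0.22). TNC had 299, 274 and 286 CPM with BMP-off and 172, 198 and 162 CPM with BMP-on in KO cells, without overlap. In KO against WT with BMP-on 4 passed (3.67% of all genes did), all lower, namely NID2 (-0.32), TNS3 (-0.36), VTN (-0.33) and SDC4 (-0.24). With BMP-off VTN passed (-0.68, SE 0.0904, edgeR adjusted p = 0.00667), against 0.0407% of all genes, and missed the threshold without WT BMP-off replicate 2 (edgeR adjusted p = 0.0878). In the interaction 0 of the 46 passed, and 8 had an unadjusted p under 0.05, against 10.6% of all genes.

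Of the 15 calls in the KO response, those of FN1, FERMT3, SDC4, TNC, NID2 and TNS3 held in all 25 alternative fits. These again include the fit that kept only replicate 1 of the KO BMP-off group. The TNS2 call was lost in 19, 8 of which left out 1 library (any WT BMP-on library, WT BMP-off replicate 3, or replicate 1 or 2 of either KO group, edgeR adjusted p up to 0.143). The VTN call was lost in 11, 4 of which left out replicate 1 or 2 of a KO group (edgeR adjusted p up to 0.125), and that of FERMT2 in 9, 4 of which left out replicate 1 or 3 of a KO group (edgeR adjusted p up to 0.103). The others were lost in 2 to 4. These included fits without KO BMP-on replicate 1 (CD151, ITGB1BP1), replicate 2 (CD9) or replicate 3 (CD9, ILK), and without KO BMP-off replicate 1 (CD9, LIMS1, TNS4), with an edgeR adjusted p of at most 0.0877. In the WT response FERMT2 missed the threshold without WT BMP-on replicate 1 (edgeR adjusted p = 0.0647). In KO against WT with BMP-on, VTN was lost in 14 fits, 8 of which left out 1 library, namely any KO BMP-on library, WT BMP-on replicate 2 or 3, WT BMP-off replicate 2 or 3, or KO BMP-off replicate 1 (edgeR adjusted p up to 0.188). TNS3 was lost there without WT BMP-on replicate 2 or KO BMP-on replicate 3 (edgeR adjusted p up to 0.0654).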

How the data were processed

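RNA-seq counts of 12 NCIH838 MIB1-iKO libraries were used, in 4 groups of 3 taken from the sample labels. According to the methods, the authors discarded ribosomal reads, used GSNAP for alignment (GRCh38), and took counts over RefSeq exons in HTSeqGenie. The deposited counts are whole numbers without normalization, listed by Ensembl identifier. The RPKM values, which the authors scaled by library and gene length, served for levels between genes and for alternatives. Which of 2 library kits named in the labels was used, and whether strand was counted, is not given in the sources used here, so overlapping antisense reads cannot be told apart. The labels do not say whether replicates were separate cultures, so p-values measure the spread between these libraries.

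Counts were tested in R 4.3.3 with edgeR 4.0.16 (TMM, default filter, 17188 genes, robust quasi-likelihood, 1 model for all libraries). There were 5 comparisons, each adjusted over all genes by the Benjamini-Hochberg method, and genes passed at an adjusted p of at most 0.05. SEs came from the quasi-likelihood F, 95% intervals from its degrees of freedom, and CPM from TMM library sizes. Every gene of the group that passed is named. Limma-voom with quantile normalization, the authors' method, was an alternative, also their 2 thresholds (adjusted p of 0.05 and a log2 change of 1 in size), as were DESeq2 1.42.0, limma 3.58.1, other scalings and filters, single libraries left out, log2(RPKM + 1) and log2(RPKM + 0.1), and a GC correction (loess span 0.4 on the transcript GC content). The procedure was also run on simulated counts with the same variation beyond counting for every gene, unlike these libraries. The outcome is not given here and is not used as support. The genes and lists were chosen with earlier results of these data known. In the list of neighbouring genes, 1 gene is not reported here. Replicates differed by 2.98 to 17.2 times the variance of counting. Total counts of 19124010 to 29498000 set the counting precision.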

Additional observations from a re-analysis of the deposited data

How the results depend on the processing

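The number of integrin and laminin genes past the test was 2 in the WT response, 7 in the KO response, 3 for KO against WT in BMP-on, and 0 both in BMP-off and in the interaction. It depended on the fit. In the WT response it was 4 with DESeq2, 5 with no filter on low counts and 4 with only the groups compared. It was 1, 0 and 0 with log2(RPKM + 1), log2(RPKM + 0.1) and log2(RPKM + 1) without a filter, and 8 with the GC correction. Leaving out KO BMP-off replicates 2 and 3 kept only replicate 1 in that group, so no counts are given for that fit. Over all genes the calls in the WT response rose as well, from 674 to 1555 with the GC correction, and with BMP-on from 630 to 1268. With BMP-off the GC correction moved them from 7 to 97 and in the interaction from 16 to 239. In the KO response the number of genes past the test was 3 with log2(RPKM + 1) without a filter and 9 with the GC correction. Over all genes the GC correction moved the calls there from 3777 to 4235. In KO against WT with BMP-on the number was 5 with only the groups compared and 6 with the GC correction. With the same RPKM settings it was 1, 1 and 0, and the 1 gene was ITGB2 each time. With BMP-off it was 1 with no filter on low counts (ITGA3) and 2 with the GC correction. In the interaction it was 1 with DESeq2, with no filter and with the GC correction (LAMA3 each time). With both thresholds of the paper it was 0 in the WT and KO responses and with BMP-on. With single libraries left out the counts ranged from 1 to 5, 5 to 9, 1 to 4, 0 to 1 and 0 to 1 in these 5 comparisons. Without WT BMP-off replicate 2 or 3 or any WT BMP-on library the WT count was 1 (ITGB8), and without KO BMP-off replicate 2 it was 5. Without WT BMP-on replicate 2 the BMP-on count was 1 (LAMA3).

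Values that changed sign were all below the threshold. The interaction of ITGA3 was -0.0216, -0.00457, -0.101 and -0.0717 without WT BMP-off replicate 3, WT BMP-on replicate 3, KO BMP-off replicate 2 and KO BMP-on replicate 1 (range over single libraries left out -0.101 to 0.142) and -0.201 with the GC correction. In KO against WT with BMP-off, ITGA6 was -0.0167 and -0.00814 without WT or KO BMP-off replicate 2 (range -0.0167 to 0.0769) and -0.0174 with the GC correction. ITGB1 there was -0.0152 without KO BMP-off replicate 2 (range -0.0152 to 0.064) and -0.0343 with the GC correction. LAMA3 there was -0.0177 without WT BMP-off replicate 3 (range -0.0177 to 0.18) and -0.00905 without KO BMP-off replicates 2 and 3. With BMP-on, ITGB1 was 0.0045 with limma-voom. In the WT response, ITGA7 was -0.0336 without WT BMP-off replicate 1 (range -0.0336 to 0.186). The cause was not tested.

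Of 18 pairs of libraries with the same replicate number in 2 groups, 1 had a correlation of deviations above 0.1 (range -0.175 to 0.173), so the numbers were not taken as pairs. With the replicate block the counts were 2, 6, 2, 0 and 0, with ITGB1 lost in the KO response and ITGB2 with BMP-on. No scaling moved the median of all genes by more than 0.1. Genes under about 1 CPM, ITGA10 and the 7 not tested, are limited by depth.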
